A study of Mus musculus with 31 samples.

Results

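Livers of 14-day-old mouse pups without a thyroid were compared with livers of pups with a thyroid, both after vehicle injections. The 5 athyroid livers came from pups of the genotype Dio1KO/Dio2KO/Pax8KO, and the 5 control livers from pups of the genotype Dio1KO/Dio2KO/Pax8Het. These 10 of the 31 libraries in the series were chosen by their source names, and the table's columns were assigned to them by animal number. Pups of both genotypes lacked Dio1 and Dio2, which encode the type 1 and type 2 deiodinases, so control livers are not wild type livers. Control pups kept 1 working allele of Pax8, the transcription factor that forms the follicular cells of the thyroid. All pups were C57Bl/6J mice, received an injection on alternate days starting at postnatal day 2, and were sampled at postnatal day 14. The loss of Pax8 and the loss of the hormone cannot be told apart in this comparison. The labels do not give hormone levels in blood. The question the comparison addresses is which liver genes differ between pups with and without their own thyroid hormone when neither of these deiodinases is present.

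The thyroid releases mostly thyroxine (T4), which deiodinases convert into triiodothyronine (T3), the ligand with the higher affinity for the nuclear thyroid hormone receptors. These receptors sit on their target genes with RXR partners, and recruit corepressors without ligand and coactivators with it. In rodent liver the hormone is known to raise enzymes of fat and cholesterol synthesis and of substrate oxidation, and its rise in blood after birth accompanies the change from the fetal to the juvenile liver programme.

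Messenger RNA was sequenced with a stranded library kit, and the deposited data are whole-number counts of reads per gene. Library totals ran from 4901954 to 5625282 counts in athyroid livers and from 4955859 to 5967157 counts in control livers, and this difference was not larger than the spread (two-sided exact permutation test, p = 0.603, adjusted p = 0.603 over 3 library measures). The 100 genes with the most counts took 6.62 ± 0.128% of a library in athyroid livers and 6.38 ± 0.143% in control livers (SD, n = 5 each, exact permutation p = 0.0238, adjusted p = 0.0714). Levels are given in CPM, counts divided by the scaled total of their library, in the order of animals 2019, 37, 38, 55 and 67 for athyroid livers and 42, 47, 49, 50 and 59 for control livers. On the first principal component of the 500 most variable genes, with 44.1% of the variance, athyroid livers lay between 14.17 and 23.61 and control livers between -25.58 and -7.89. Control animals 47 and 59 lay nearest to the athyroid livers, and athyroid animals 37 and 67 lay at opposite ends of the second component. By Xist and Y-linked genes 2 athyroid and 4 control livers were female and 3 athyroid and 1 control livers were male, and 1 athyroid library differed from its labelled sex. Each library carries the number of its own animal.

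Of 17057 genes tested, 839 (4.92%) were higher and 803 (4.71%) were lower in athyroid livers at an adjusted p under 0.05 with edgeR's quasi-likelihood test, 9.63% of all in either direction. Such genes are called here. In bulk liver, fewer cells of a type and less RNA per cell cannot be told apart, and likewise more cells and more RNA per cell. The median log2 fold change of all genes tested was 0.01, so the fold changes were centred near 0. Among the called genes 265 were more than 2-fold higher and 264 more than 2-fold lower in athyroid livers. In 1027 of the 1642 called genes the values of the 2 groups did not overlap. Calling itself favours such genes, so this count is no separate support, and the count over all genes is not given. Leaving out 1 library at a time gave 458 to 874 genes higher and 477 to 730 lower. The fewest were called without athyroid animal 38 (531 higher and 480 lower), control animal 49 (477 and 489) or control animal 50 (458 and 477). Without athyroid animals 2019 and 37 and control animal 47, the libraries with raised markers of pancreatic acinar cells, 665 genes were higher and 503 lower, an alternative chosen after seeing the data. In the 6 livers of animals 37 to 50 (2 athyroid and 4 control), which were all female by their genes, 335 genes were higher and 413 lower, and 109 of the 180 called genes that the naming rules pick lost their call. A list of genes whose called shares lie near those over all genes, 4.92% higher and 4.71% lower, does not stand apart by its counts. All lists were chosen with earlier results of these data known, and their shares were not tested. Where a named gene lost its call without 1 library, these libraries are named below with the range of its adjusted p over 22 alternatives. Losses in animals 37 to 50 are named for some of the genes only. The plot of log2 fold change against level shows that called genes occur over the whole range of levels.

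**Figure D1:**
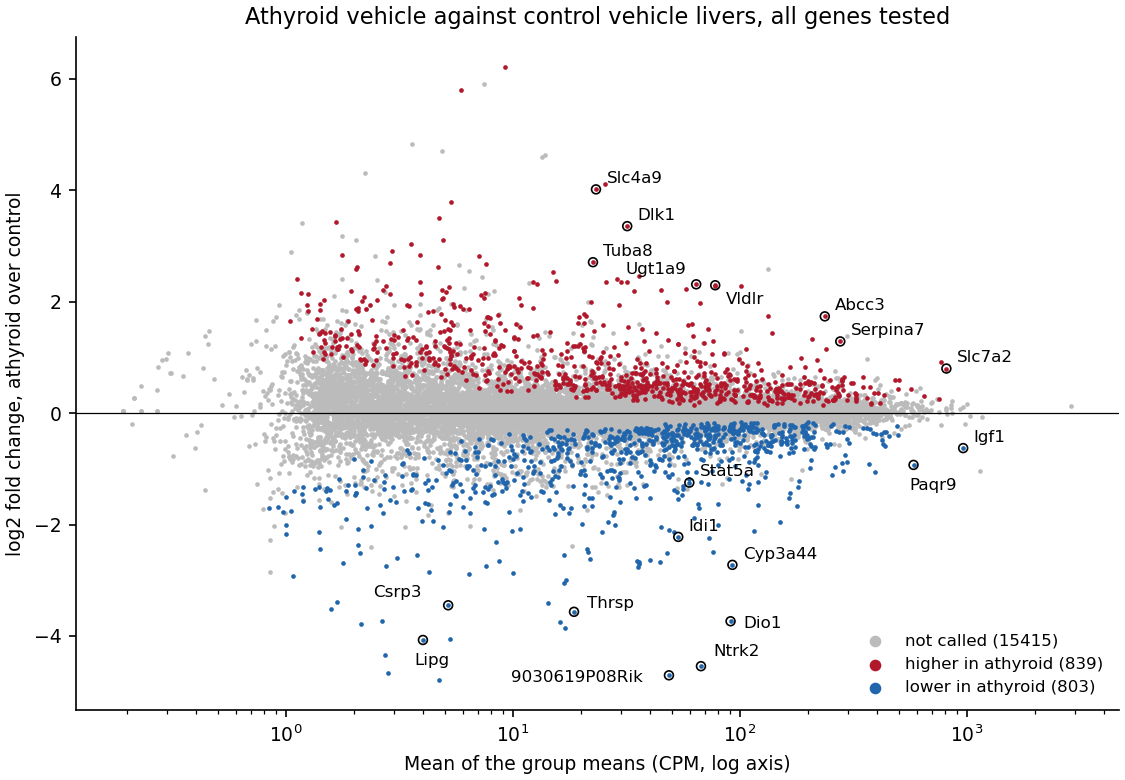
Each point is 1 of the 17057 genes tested. The horizontal axis is the mean of the group means in CPM (log axis) and the vertical axis is the log2 fold change, athyroid over control. Coloured points mark the 839 genes called higher and the 803 called lower in athyroid livers, and the labelled genes are ones described in the text.

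Among the genes that define the design, Dio1 differed the most between the groups. Dio1 (ENSMUSG00000034785, chromosome 4, 107291465 to 107307169 in GRCm38), which encodes type 1 deiodinase and is itself a target of the hormone receptor, had deposited counts of 74, 69, 49, 91 and 42 in athyroid livers, against 805, 840, 1035, 1002 and 776 in control livers. Every athyroid library lay far below every control library (log2 fold change -3.74 ± 0.34, edgeR adjusted p = 3.12e-08). Reads were thus assigned to Dio1 in animals of both groups although both carry the Dio1 deletion, and the deleted stretch of Dio1 is not given in the labels. Pax8 (ENSMUSG00000026976, chromosome 2, 24420560 to 24475599) had deposited counts of 5, 11, 8, 16 and 4 in athyroid livers, against 5, 6, 5, 7 and 6 in control livers, where 1 is the lowest value of the table. Counts this low check neither genotype, and the difference did not pass the test (log2 fold change 0.65 ± 0.49, edgeR adjusted p = 0.433). Dio2 had counts of 14, 15, 18, 26 and 4 in athyroid livers, against 12, 22, 16, 17 and 18 in control livers (log2 fold change -0.08 ± 0.40, edgeR adjusted p = 0.936). The ranges of both Pax8 and Dio2 overlapped between the groups.

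Of 13 measured carriers and plasma binding proteins of thyroid hormone, 2 were higher and 1 was lower in athyroid livers (median log2 fold change -0.04, against 0.01 over all genes). These are 15.4% and 7.69%, against 4.92% and 4.71% over all genes. Serpina7, which encodes thyroxine-binding globulin, had 411, 338, 352, 384 and 479 CPM in athyroid livers, against 105, 249, 129, 135 and 186 CPM in control livers. All athyroid livers were above all control livers, and control animal 47 was the highest of the controls (log2 fold change 1.29 ± 0.26, edgeR adjusted p = 0.00236). Serpina7 lost its call in animals 37 to 50 (edgeR adjusted p = 0.0655). Slco1a1, an organic anion carrier that also takes up T4, had 21.4, 31, 64.6, 31.6 and 28.5 CPM in athyroid livers, against 10.8, 9.14, 6.52, 6.29 and 11.6 CPM in control livers (log2 fold change 1.99 ± 0.38, edgeR adjusted p = 0.00125). Athyroid animal 38 stood at the top of that list of values, and no athyroid liver reached down to the control range. Ttr and Alb, the other main carriers of the hormone in plasma, had log2 fold changes of -0.04 ± 0.11 and 0.06 ± 0.08 and were not called.

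Of 15 genes for the receptors, their partners and the deactivating enzyme, 2 were higher (13.3%, against 4.92% over all genes) and 0 lower (median 0.03). Thra, the receptor alpha gene, had 64.3, 73.1, 66.7, 73.2 and 69.4 CPM in athyroid livers, against 52.7, 61.8, 49.2, 48.9 and 54.7 CPM in control livers (log2 fold change 0.37 ± 0.07, edgeR adjusted p = 0.00123). The smallest athyroid value exceeded the largest control value. Thrb, the receptor that predominates in liver, had a log2 fold change of 0.08 ± 0.13 (adjusted p = 0.724) and was not called. Dio3, whose enzyme inactivates T4 and T3 and which is high in fetal tissue, had 17.4, 16.1, 18.2, 9.55 and 11.8 CPM in athyroid livers, against 5.32, 8.29, 2.96, 3.45 and 8.19 CPM in control livers (log2 fold change 1.36 ± 0.40, edgeR adjusted p = 0.0278). The groups did not overlap, but the call was lost without athyroid animal 2019 or 38 or control animal 42, 49 or 50 (adjusted p from 0.0125 to 0.0865 over the alternatives). The antisense gene Dio3os lies beside Dio3, and as the use of strand in counting is not given in the sources used here, reads of the pair may be shared.

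Genes with textbook induction by T3 in rodent liver were lower as far as they were called. Of 19 tested, 0 were higher and 7 were lower in athyroid livers, 14 had a negative log2 fold change and the median was -0.56, against 4.92% higher, 4.71% lower and a median of 0.01 over all genes. Thrsp, a small regulator of fat synthesis known as Spot 14, had 2.29, 3.83, 1.62, 4.24 and 2.39 CPM in athyroid livers, against 73.4, 2.71, 44.8, 26.2 and 24.2 CPM in control livers (log2 fold change -3.57 ± 0.86, edgeR adjusted p = 0.00848). Control animal 47 lay inside the athyroid range, and the other 4 control livers were far above it. Thrsp lost its call in animals 37 to 50 (edgeR adjusted p = 0.122). Gpd2, the mitochondrial glycerol phosphate dehydrogenase, had 96, 45, 80.6, 36.7 and 190.2 CPM in athyroid livers, against 178, 346, 271, 232 and 183 CPM in control livers (log2 fold change -1.43 ± 0.32, edgeR adjusted p = 0.00496). Athyroid animal 67 reached the level of the lowest control livers, and the call was lost without the libraries with raised acinar genes (adjusted p = 0.0828). Bcl3, a nuclear cofactor of NF-kappa B, had 22.1, 22.3, 13.7, 18.9 and 13.1 CPM in athyroid livers, against 49.5, 29.4, 44.8, 40.6 and 36.2 CPM in control livers, with no overlap (log2 fold change -1.15 ± 0.22, edgeR adjusted p = 0.00139). The calls of 2 members were lost when any of several libraries was left out. That of Me1, the cytosolic malic enzyme (log2 fold change -1.39 ± 0.39, edgeR adjusted p = 0.023), was lost without athyroid animal 55 or control animal 47, 49 or 50 (adjusted p from 0.00808 to 0.234 over the alternatives), and that of Idh3a, a subunit of isocitrate dehydrogenase (log2 fold change -0.55 ± 0.17, edgeR adjusted p = 0.0405), was lost without athyroid animal 2019, 37 or 55 or control animal 47, 49, 50 or 59 (adjusted p from 0.0191 to 0.269 over the alternatives).

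Lipogenic genes were lower where they were called, and most members were not called. Of 21 tested, 6 were lower (28.6%, against 4.71% over all genes) and 0 higher (median -0.11). Thrsp and Me1, described above, are among these 6 and count in both lists. Fasn, the fatty acid synthase, had 74.2, 95, 59.2, 54.7 and 72 CPM in athyroid livers, against 158, 122, 197, 196 and 168 CPM in control livers (log2 fold change -1.24 ± 0.20, edgeR adjusted p = 0.000271). The highest athyroid liver was below the lowest control liver. Mlxipl, the glucose-responsive factor ChREBP, had 157, 189.9, 143, 144 and 189.8 CPM in athyroid livers, against 295, 203, 217, 191 and 236 CPM in control livers (log2 fold change -0.47 ± 0.12, edgeR adjusted p = 0.00938). Its groups came close to each other without overlapping. Mid1ip1, a partner of acetyl-CoA carboxylase and relative of Thrsp, had 64.3, 44, 37.8, 48 and 54.1 CPM in athyroid livers, against 84.4, 60.8, 72.7, 81.3 and 72 CPM in control livers, with athyroid animal 2019 inside the control range (log2 fold change -0.58 ± 0.13, edgeR adjusted p = 0.00553). Acaca, the carboxylase itself, fell by 0.31 ± 0.08 on the log2 scale (adjusted p = 0.0173), a call lost without athyroid animal 37 or 38 or control animal 49 (adjusted p from 0.00307 to 0.0609 over the alternatives). Srebf1, the sterol response factor of fat synthesis, and Scd1, the stearoyl desaturase, had log2 fold changes of -0.16 ± 0.27 and 0.65 ± 0.57 and were not called.

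Desaturases and elongases of polyunsaturated fatty acids were lower where they were called. Of 12 desaturases and elongases, 6 were lower (50%, against 4.71% over all genes), 0 higher, and 10 had a negative log2 fold change (median -0.20). Fads1, Fads2 and Fads3, the delta-5 desaturase, the delta-6 desaturase and their relative, lie side by side on chromosome 19. Fads1 had 329, 309, 363, 299 and 441 CPM in athyroid livers, against 490.5, 487, 522, 607 and 502 CPM in control livers (log2 fold change -0.58 ± 0.10, edgeR adjusted p = 0.000271). Fads2 had 143, 127, 157, 122 and 177 CPM in athyroid livers, against 192, 199.7, 205, 234 and 186 CPM in control livers (log2 fold change -0.48 ± 0.09, edgeR adjusted p = 0.000704). Fads3 had 13.2, 16.6, 16.4, 18.9 and 19.3 CPM in athyroid livers, against 35.4, 24.7, 42.9, 41.2 and 29.9 CPM in control livers (log2 fold change -1.04 ± 0.22, edgeR adjusted p = 0.00344). None of the 3 genes had overlapping groups, and Fads3 showed the largest fold of the 3. Elovl3, an elongase, had 2 reads above the lowest value over all athyroid livers and 74 over all control livers, a ratio of 36.2-fold lower in athyroid livers (95% exact interval 9.68 to 305, counting error only). Its control values ran from 0.169 to 8.89 CPM, control animal 47 had as little as the athyroid livers, and the call (adjusted p = 0.0207) was lost without athyroid animal 67 or control animal 49 (adjusted p from 0.00436 to 0.181 over the alternatives). Elovl5 (log2 fold change -0.38 ± 0.10, edgeR adjusted p = 0.0174) and Hsd17b12 (log2 fold change -0.29 ± 0.09, edgeR adjusted p = 0.0356), which also act in chain elongation, differed less. The call of Elovl5 was lost without athyroid animal 37 or control animal 50 (adjusted p from 0.00575 to 0.119 over the alternatives), and that of Hsd17b12 without athyroid animal 37 or 38 or control animal 49 or 50 (adjusted p from 0.0193 to 0.112 over the alternatives).

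Enzymes of cholesterol synthesis were lower where they were called. Of 20 tested, 9 (45%, against 4.71% of all genes) were lower in athyroid livers, 0 were higher and 17 had a negative log2 fold change (median -0.75). The list was chosen with earlier results of these data known, so its share is a description only. Leaving out single libraries gave 6 to 12 called lower, the 6 female livers of animals 37 to 50 gave 2, and the count was 7 without the 3 libraries with raised acinar genes. The called steps run from Hmgcs1 near the start of the pathway to Sc5d near its end. The promoters of 4 of them are printed because these called genes share a list and their start regions can be searched for known motifs. The sequences are RefSeq start regions in GRCm38.p6, from 250 bases before to 50 bases after each annotated start, given 5′ to 3′ on the gene's strand. Capitals mark the motifs CCAAT (bound by NF-Y), TCACNCCAC (a sterol response element) and AGGTCA (the half-site of nuclear receptors), each searched on both strands. A CCAAT on the other strand reads ATTGG here, and an AGGTCA on the other strand reads TGACCT. Hmgcs1 is at chr13:119690101-119690400, plus strand, Idi1 at chr13:8885356-8885655, plus strand, Cyp51 at chr5:4104648-4104947, minus strand and Msmo1 at chr8:64733529-64733828, minus strand.
Hmgcs1: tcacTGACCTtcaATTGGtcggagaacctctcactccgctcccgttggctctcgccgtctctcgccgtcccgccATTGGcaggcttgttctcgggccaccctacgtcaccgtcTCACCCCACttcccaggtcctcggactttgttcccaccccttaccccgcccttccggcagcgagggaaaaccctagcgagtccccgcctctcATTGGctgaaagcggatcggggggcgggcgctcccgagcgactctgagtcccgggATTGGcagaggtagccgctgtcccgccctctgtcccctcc
Idi1: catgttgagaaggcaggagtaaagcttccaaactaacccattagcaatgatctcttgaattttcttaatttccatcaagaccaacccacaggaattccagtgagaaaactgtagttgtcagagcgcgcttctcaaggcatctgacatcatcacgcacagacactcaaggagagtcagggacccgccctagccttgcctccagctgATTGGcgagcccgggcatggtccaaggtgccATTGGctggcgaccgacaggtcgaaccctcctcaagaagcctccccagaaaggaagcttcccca
Cyp51: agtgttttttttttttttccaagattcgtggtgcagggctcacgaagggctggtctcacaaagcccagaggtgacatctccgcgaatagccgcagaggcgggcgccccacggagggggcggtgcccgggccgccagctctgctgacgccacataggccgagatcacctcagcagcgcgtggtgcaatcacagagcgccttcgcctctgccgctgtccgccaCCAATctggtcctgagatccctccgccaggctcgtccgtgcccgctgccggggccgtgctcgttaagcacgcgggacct
Msmo1: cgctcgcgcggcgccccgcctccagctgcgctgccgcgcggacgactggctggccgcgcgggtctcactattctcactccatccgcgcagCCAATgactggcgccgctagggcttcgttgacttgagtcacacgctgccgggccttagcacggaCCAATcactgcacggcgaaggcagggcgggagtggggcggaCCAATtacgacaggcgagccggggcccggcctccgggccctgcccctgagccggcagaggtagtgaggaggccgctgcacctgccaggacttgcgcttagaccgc

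CCAAT stood in the start regions of 6 of the 6 called cholesterol synthesis genes that the promoter table holds and in 14 of the 15 members of the list that it holds (93.3%), against 41.1% of all 27025 genes with a start region. A gene counted once if any of its start regions held the motif. In Hmgcs1 the 4 CCAAT motifs begin at positions -237, -176, -45 and 11 and the sterol element at -137, counted from 1 at the start and from -1 before it. Idi1 has CCAAT at -45 and -14, Msmo1 at -160, -96 and -55, and Cyp51 at -29. The sterol element was found in 1 of the 6, against 1.44% of all genes with a start region. AGGTCA was found in 1 of the 6 and in 0 of the 5 called hormone-induced genes with a start region, against 18.1% of all such genes. These matches describe the letters of these windows, and a motif elsewhere was not looked for. The genes Fdps and Sqle have no entry in the promoter table.

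Hmgcs1, the synthase that makes HMG-CoA, had 191, 160.5, 136, 183 and 130.3 CPM in athyroid livers, against 269, 292, 406, 434 and 337 CPM in control livers (log2 fold change -1.12 ± 0.19, edgeR adjusted p = 0.000294). All athyroid livers lay below all control livers. Idi1, which isomerises the isoprenoid unit, had 14.7, 19.9, 13.7, 19.5 and 26.1 CPM in athyroid livers, against 39.5, 25.2, 133, 169.7 and 73.4 CPM in control livers (log2 fold change -2.22 ± 0.49, edgeR adjusted p = 0.00449). Control animals 42 and 47 were the lowest controls, and animal 47 lay inside the athyroid range. Cyp51, the lanosterol demethylase, had 42.4, 37.9, 41.4, 31.8 and 41.8 CPM in athyroid livers, against 49.9, 50.3, 174, 218 and 115 CPM in control livers (log2 fold change -1.63 ± 0.38, edgeR adjusted p = 0.00724). Msmo1, the sterol methyl oxidase, had 17.9, 29, 26.1, 28.4 and 31.9 CPM in athyroid livers, against 49.2, 39.1, 131, 166 and 109 CPM in control livers (log2 fold change -1.88 ± 0.38, edgeR adjusted p = 0.00215). In both genes control animals 49 and 50 were the highest and animals 42 and 47 were close to the athyroid livers. Sc5d, the lathosterol desaturase, had the smallest adjusted p of the list, with 192, 216, 201, 255 and 124 CPM in athyroid livers, against 356, 307, 376, 419 and 377 CPM in control livers (log2 fold change -0.89 ± 0.13, edgeR adjusted p = 4.64e-05), and its control values were even. Fdps, the farnesyl diphosphate synthase, was lower by 1.46 ± 0.35 on the log2 scale (adjusted p = 0.00801).

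The calls of Sqle and Nsdhl were lost when any of several libraries was left out. Sqle, the squalene epoxidase, had 7.63, 12, 8.68, 8.91 and 16 CPM in athyroid livers, against 8.81, 10.8, 69.9, 90.6 and 28.6 CPM in control livers (log2 fold change -1.95 ± 0.61, edgeR adjusted p = 0.0397). Control animals 42 and 47 were within the athyroid range, and the call was lost without athyroid animal 2019, 37, 38, 55 or 67 or control animal 49 or 50 (adjusted p from 0.0115 to 0.209 over the alternatives). Nsdhl, a sterol dehydrogenase (log2 fold change -1.21 ± 0.34, edgeR adjusted p = 0.0237), lost its call without athyroid animal 38 or 67 or control animal 49 or 50 (adjusted p from 0.0059 to 0.146 over the alternatives). Of 11 genes for cholesterol control and uptake, 2 were lower and 1 higher (18.2% and 9.09%, against 4.71% and 4.92% over all genes). Srebf2, the transcription factor that drives the synthesis genes, had 84.9, 83.2, 77.2, 81 and 110.3 CPM in athyroid livers, against 121, 112, 176, 181 and 163 CPM in control livers (log2 fold change -0.79 ± 0.16, edgeR adjusted p = 0.00261), with athyroid animal 67 just below the lowest control. Mylip, a ubiquitin ligase, was higher (log2 fold change 0.52 ± 0.16, edgeR adjusted p = 0.0378), and its call was lost without athyroid animal 38 or 67 or control animal 42, 49, 50 or 59 (adjusted p from 0.0177 to 0.201 over the alternatives). The plot of the pathway shows the values step by step.

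**Figure D2:**
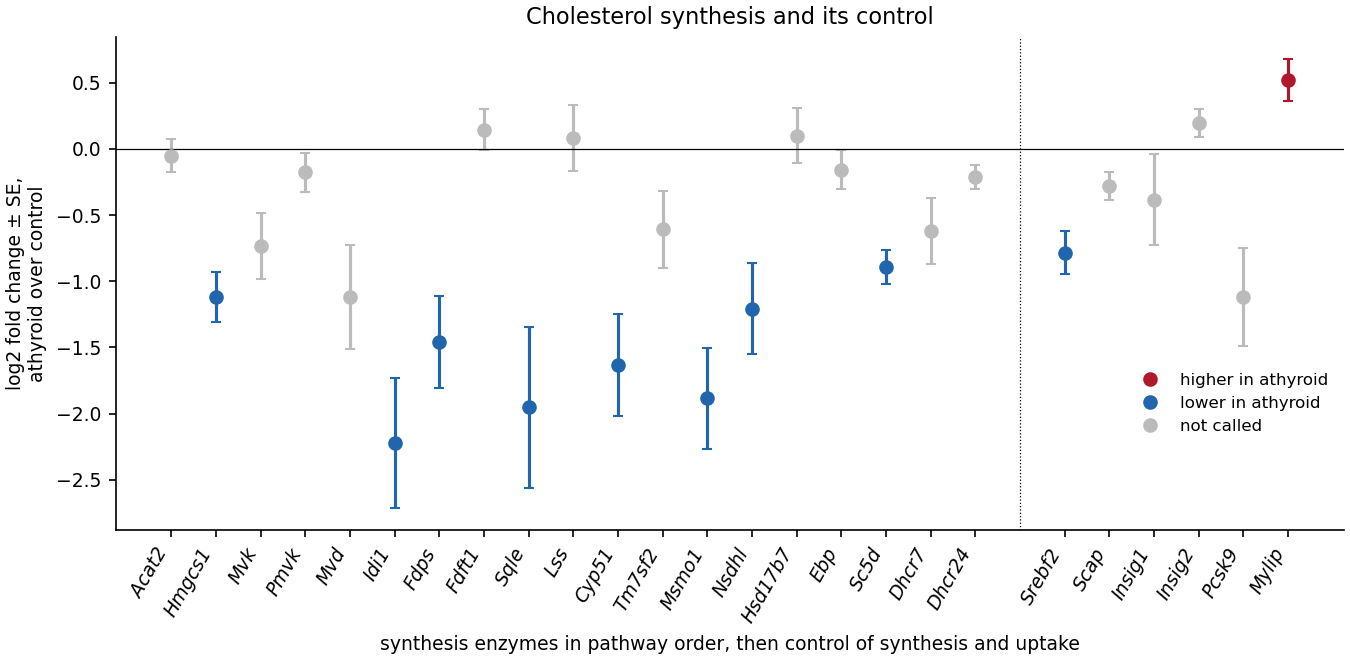
Enzymes of cholesterol synthesis are placed in pathway order along the horizontal axis, with the log2 fold change of athyroid over control on the vertical axis and bars of 1 SE. Genes of sterol control and uptake follow to the right of the dotted line. Of the 19 synthesis enzymes drawn, the 8 called ones are blue, and 16 points lie below 0.

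Of 24 lipoprotein genes 1 was higher and 1 lower, 4.17% each way and so near the shares over all genes (median 0.07), and both differences were large. Lipg, the endothelial lipase that hydrolyses phospholipids of high density lipoprotein, had 0.191, 0.182, 0.202, 1.06 and 0.552 CPM in athyroid livers, against 6.61, 2.54, 10.5, 9.33 and 8.96 CPM in control livers (log2 fold change -4.07 ± 0.76, edgeR adjusted p = 0.000975). Athyroid livers had 6 reads above the lowest value in all, against 192 in control livers. Vldlr, a receptor for triglyceride-rich particles that is low in normal liver, had 123, 115, 102, 198 and 109.5 CPM in athyroid livers, against 27.3, 46.4, 8.29, 18 and 30.7 CPM in control livers (log2 fold change 2.30 ± 0.40, edgeR adjusted p = 0.000519). The groups stood far apart, and athyroid animal 55 was the highest of all. The apolipoprotein genes Apoa1, Apob and Apoe had log2 fold changes of 0.02, 0.13 and 0.06 and were not called.

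Of 27 genes for fat uptake, beta-oxidation and ketogenesis, 2 were higher (7.41%, against 4.92% over all genes), 0 lower and 20 positive (median 0.08). Acadm, the medium-chain acyl-CoA dehydrogenase, had 281, 281, 299, 311 and 276 CPM in athyroid livers, against 239, 242, 233, 224 and 245 CPM in control livers (log2 fold change 0.29 ± 0.07, edgeR adjusted p = 0.00951). Its groups did not overlap although the fold was small. Of 8 Cyp4 omega-hydroxylases, 3 neighbours on chromosome 4 were higher (37.5%, against 4.92% over all genes) and 0 lower (median 0.31). Cyp4a10 had 309, 293, 384, 317 and 350.0 CPM in athyroid livers, against 126, 253, 126, 129 and 110.3 CPM in control livers (log2 fold change 1.15 ± 0.29, edgeR adjusted p = 0.0104). Cyp4a14 had 547, 532, 659, 546 and 617 CPM in athyroid livers, against 375, 458, 344, 373 and 364 CPM in control livers (log2 fold change 0.60 ± 0.15, edgeR adjusted p = 0.0101). Cyp4a32 had 90.8, 80.1, 121, 70.9 and 174 CPM in athyroid livers, against 37.4, 61.1, 27.1, 28.2 and 33.7 CPM in control livers (log2 fold change 1.51 ± 0.34, edgeR adjusted p = 0.00466). In all 3 the lowest athyroid liver exceeded the highest control, which was control animal 47 each time. All 3 lost their calls in animals 37 to 50 (edgeR adjusted p = 0.114, 0.0918 and 0.0708). The 3 genes are close in sequence, so reads may be shared among them. Cpt1a, the gate of mitochondrial oxidation, and Ppara, the receptor that drives it, had log2 fold changes of -0.01 ± 0.10 and -0.27 ± 0.11 and were not called.

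Bile acid and sterol export genes moved in both directions, 5 higher and 2 lower of 23 (21.7% and 8.70%, against 4.92% and 4.71% over all genes, median -0.04). The largest rise was that of Abcc3, which exports bile acid and bilirubin conjugates into blood, with 378, 382, 419.7, 387 and 254 CPM in athyroid livers, against 123, 154, 84.7, 63.1 and 120.1 CPM in control livers (log2 fold change 1.74 ± 0.26, edgeR adjusted p = 9.35e-05). Even athyroid animal 67, the lowest of its group, lay above every control. Nr5a2, the nuclear receptor LRH-1 that acts on bile acid genes, had 217, 234, 246, 233 and 297 CPM in athyroid livers, against 168, 165, 149.5, 159 and 187 CPM in control livers (log2 fold change 0.56 ± 0.11, edgeR adjusted p = 0.000976). Its control values were even and none reached the athyroid range. Cyp8b1, which makes the 12-hydroxylated bile acids, had 181, 236, 215, 185 and 149.5 CPM in athyroid livers, against 283, 248, 281, 317 and 297 CPM in control livers (log2 fold change -0.56 ± 0.12, edgeR adjusted p = 0.00277). Acox2, the peroxisomal oxidase of bile acid precursors, was higher by 0.33 ± 0.08 on the log2 scale (adjusted p = 0.00989). Cyp8b1 and Acox2 lost their calls in animals 37 to 50 (edgeR adjusted p = 0.235 and 0.0508). The half-transporters Abcg5 and Abcg8, which together export sterols into bile, lie head to head on chromosome 17, 84658234 to 84700333. Both were higher, Abcg5 with log2 fold change 0.45 ± 0.13, edgeR adjusted p = 0.0263 and Abcg8 with log2 fold change 0.47 ± 0.12, edgeR adjusted p = 0.0104, and both had overlapping groups. The call of Abcg8 was lost without the libraries with raised acinar genes (adjusted p = 0.0696), and that of Abcg5 without athyroid animal 37, 38 or 55 or control animal 47, 49 or 50 (adjusted p from 0.00338 to 0.131 over the alternatives). Abcb11, the canalicular bile salt pump, was lower (log2 fold change -0.33 ± 0.11, edgeR adjusted p = 0.0428), and its call was lost without athyroid animal 2019, 38, 55 or 67 or control animal 42, 49, 50 or 59 (adjusted p from 0.0212 to 0.328 over the alternatives). Cyp7a1, the rate-limiting enzyme of bile acid synthesis, had a log2 fold change of -1.02 ± 0.39 (adjusted p = 0.0889) and was not called.

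In glucose metabolism, 3 of 24 gluconeogenesis and glycogen genes were higher and 2 lower (12.5% and 8.33%, against 4.92% and 4.71% over all genes, median 0.10). Pdp2, a phosphatase that activates pyruvate dehydrogenase, had 33.8, 27.4, 31.1, 34.4 and 55.1 CPM in athyroid livers, against 96.2, 71.6, 95.8, 82.5 and 69 CPM in control livers (log2 fold change -1.19 ± 0.20, edgeR adjusted p = 0.000259). Athyroid animal 67 stood above the rest of its group but below all controls. Gys2, the glycogen synthase of liver, had 257, 236, 330.2, 259 and 346 CPM in athyroid livers, against 177, 216, 181, 156 and 186 CPM in control livers, with no overlap (log2 fold change 0.64 ± 0.16, edgeR adjusted p = 0.0124). Pygl, the phosphorylase that breaks glycogen down, was lower (log2 fold change -0.34 ± 0.10, edgeR adjusted p = 0.0217), a call lost without athyroid animal 38 or 67 or control animal 42 or 49 (adjusted p from 0.00429 to 0.123 over the alternatives). Ugp2, which makes the UDP-glucose for glycogen (log2 fold change 0.28 ± 0.08, edgeR adjusted p = 0.0332), lost its call without athyroid animal 37, 38 or 55 or control animal 47, 49 or 50 (adjusted p from 0.0135 to 0.103 over the alternatives), and Pck2, the mitochondrial PEP carboxykinase (log2 fold change 0.46 ± 0.13, edgeR adjusted p = 0.024), without athyroid animal 38 or 67 or control animal 49 or 50 (adjusted p from 0.0103 to 0.202 over the alternatives). G6pc and Pck1, the textbook gluconeogenic pair, had log2 fold changes of 0.03 ± 0.14 and 0.25 ± 0.10 and were not called.

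Of 23 genes for hexose use and cytosolic NADPH, 1 was higher and 4 were lower (4.35% and 17.4%, against 4.92% and 4.71% over all genes, median -0.11). Tkt, the transketolase of the pentose phosphate pathway, had 83.8, 87.2, 77.2, 89.5 and 78.4 CPM in athyroid livers, against 98.7, 96.3, 110.0, 115 and 103 CPM in control livers (log2 fold change -0.33 ± 0.07, edgeR adjusted p = 0.00355). The groups did not overlap. Besides Me1, the other called members were Idh1, the cytosolic isocitrate dehydrogenase (log2 fold change -0.31 ± 0.09, edgeR adjusted p = 0.0298), Pklr, the pyruvate kinase of liver (log2 fold change -0.55 ± 0.17, edgeR adjusted p = 0.0412), and Gpi1, the glucose phosphate isomerase, which was the higher one (log2 fold change 0.29 ± 0.09, edgeR adjusted p = 0.0438). The call of Idh1 was lost without athyroid animal 37, 38 or 67 or control animal 49 or 50 (adjusted p from 0.0108 to 0.0882 over the alternatives). That of Pklr was lost without athyroid animal 37, 38, 55 or 67 or control animal 42, 47, 49 or 50 (adjusted p from 0.00843 to 0.125 over the alternatives), and that of Gpi1 without athyroid animal 37, 38, 55 or 67 or control animal 42, 47, 49, 50 or 59 (adjusted p from 0.023 to 0.176 over the alternatives).

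Of 26 amino acid and urea genes 1 was higher (3.85%) and 2 were lower (7.69%), near the 4.92% and 4.71% over all genes, and 21 had positive values (median 0.20). Slc25a13, the aspartate and glutamate carrier citrin, had 332, 348, 359.9, 394 and 339.7 CPM in athyroid livers, against 306, 281, 307, 280.2 and 299 CPM in control livers (log2 fold change 0.27 ± 0.06, edgeR adjusted p = 0.0053). Prodh, which starts proline breakdown, had 13, 39, 27.5, 38.8 and 8.65 CPM in athyroid livers, against 262, 32.5, 111, 77.3 and 117 CPM in control livers (log2 fold change -2.25 ± 0.58, edgeR adjusted p = 0.0143). Control animal 42 was the highest and control animal 47 lay inside the athyroid range, and the call was lost without control animal 42 (adjusted p from 0.00257 to 0.215 over the alternatives). Glul, the glutamine synthetase of hepatocytes around the central vein, was lower (log2 fold change -0.41 ± 0.12, edgeR adjusted p = 0.0268), with a call lost without athyroid animal 37 or 55 or control animal 49 or 50 (adjusted p from 0.00891 to 0.102 over the alternatives). The respiratory chain showed no called gene: 0 of 30 nuclear-encoded subunits passed edgeR's test in either direction, 2 had an unadjusted p under 0.05, DESeq2 called 0, and the median was 0.01.

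Of 17 genes of the growth hormone, prolactin and IGF axis, 4 were lower and 2 higher in athyroid livers (median -0.10). These are 23.5% and 11.8%, against 4.71% and 4.92% over all genes. Stat5a, the transcription factor activated by these receptors, had 36.1, 38.3, 31.1, 31.4 and 40.3 CPM in athyroid livers, against 71.2, 86, 92.4, 97.5 and 73.9 CPM in control livers (log2 fold change -1.25 ± 0.14, edgeR adjusted p = 2.00e-06). Every control liver had more than the highest athyroid liver. Prlr, the prolactin receptor, had 289, 291, 176, 369 and 157 CPM in athyroid livers, against 629.6, 446, 545, 556 and 475 CPM in control livers (log2 fold change -1.05 ± 0.23, edgeR adjusted p = 0.00347). Again the groups stood apart, with athyroid animals 38 and 67 the lowest. Igf1, the circulating growth factor, had 876, 851, 621, 909 and 527 CPM in athyroid livers, against 1286, 963, 1283, 1254 and 1058 CPM in control livers (log2 fold change -0.63 ± 0.19, edgeR adjusted p = 0.0363), and Igfals, which stabilises it in blood, had 148, 124, 55.7, 127 and 60.9 CPM in athyroid livers, against 330.5, 188, 239.6, 297 and 234 CPM in control livers (log2 fold change -1.32 ± 0.37, edgeR adjusted p = 0.0236). Athyroid animals 38 and 67 were the lowest in both. The call of Igf1 was lost without athyroid animal 38 or 67 or control animal 42, 49 or 50 (adjusted p from 0.0164 to 0.138 over the alternatives), and that of Igfals without athyroid animal 38 or 67 or control animal 42 or 50 (adjusted p from 0.0111 to 0.11 over the alternatives). The binding proteins Igfbp1 (log2 fold change 0.33 ± 0.10, edgeR adjusted p = 0.0334) and Igfbp2 (log2 fold change 0.32 ± 0.09, edgeR adjusted p = 0.0288) were higher, with calls lost without athyroid animal 38 or 67 or control animal 42, 49 or 50 (adjusted p from 0.0119 to 0.122 over the alternatives) and without athyroid animal 2019, 38 or 67 or control animal 42 or 49 (adjusted p from 0.0158 to 0.164 over the alternatives). Ghr, the growth hormone receptor, had a log2 fold change of -0.23 ± 0.16 and was not called.

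Genes with sex-biased expression in adult mouse liver gave 2 rises and 4 falls of 14 (median -0.52). These are 14.3% and 28.6%, against 4.92% and 4.71% over all genes. The sexes were unequal between the groups, with 2 of 5 athyroid and 4 of 5 control livers female by their genes. The part of sex in these values was examined through a covariate and in the 6 livers of animals 37 to 50, all female. A1bg, a female-biased plasma protein, had 0 reads above the lowest value in athyroid livers and 139 in control livers, at least 45.3-fold lower when 0 is set to 3 reads over the group. Its control values were 15.6, 0.508, 5.13, 5.48 and 0.572 CPM, so the difference rested on control animals 42, 49 and 50, and edgeR gave an adjusted p of 0.00614. Cyp2d9, a male-biased P450, was higher (log2 fold change 0.65 ± 0.18, edgeR adjusted p = 0.0233), with a call lost without athyroid animal 38 or control animal 49 or 50 (adjusted p from 0.00729 to 0.0846 over the alternatives). In the 6 female livers A1bg (edgeR adjusted p = 0.0725) and Cyp2d9 lost their calls, and 2 genes of the list were higher and 2 lower. With sex as a covariate 752 genes were called higher and 687 lower, and the list gave 2 and 4.

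Imprinted growth genes and oncofetal genes of the liver were higher where they were called. Of 19 tested, 8 (42.1%, against 4.92% of all genes) were higher, 0 lower and 17 positive (median 0.53). Leaving out single libraries gave 6 to 12 called higher, and the 6 female livers of animals 37 to 50 gave 1. Dlk1, a paternally expressed membrane protein of fetal liver, had 54.8, 59.8, 77.8, 34.6 and 63.7 CPM in athyroid livers, against 2.57, 10.7, 3.75, 4.46 and 6.48 CPM in control livers (log2 fold change 3.36 ± 0.44, edgeR adjusted p = 1.06e-05). The noncoding RNAs Meg3, Rian and Mirg are made from the maternal allele of the same domain. Meg3 had 81.5, 95.6, 79.4, 104 and 102 CPM in athyroid livers, against 58, 24.9, 22.5, 23.9 and 22.5 CPM in control livers (log2 fold change 1.61 ± 0.31, edgeR adjusted p = 0.00131). Rian had 55, 51.4, 49.7, 64.1 and 47.5 CPM in athyroid livers, against 35.4, 19.1, 16.4, 19.5 and 18.5 CPM in control livers (log2 fold change 1.29 ± 0.34, edgeR adjusted p = 0.0154). Mirg had 4.01, 2.92, 2.83, 3.82 and 2.39 CPM in athyroid livers, against 0.55, 1.35, 0.987, 0.811 and 0.572 CPM in control livers (log2 fold change 1.86 ± 0.40, edgeR adjusted p = 0.00377). In each of these the groups did not overlap, and control animal 42 was the highest control of Meg3 and Rian. Meg3, Rian and Mirg lost their calls in animals 37 to 50, and Rian also without the libraries with raised acinar genes (highest adjusted p over the alternatives 0.0506, 0.171 and 0.0934). With Dio3 they make up the 5 tested genes between 109452823 and 110281097 on chromosome 12, of 96 that the table holds there, and all 5 were higher; this stretch was chosen after the values were seen.

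Outside that domain, Plagl1, an imprinted zinc finger regulator of growth genes, had 99.2, 92.3, 83.4, 73.6 and 106 CPM in athyroid livers, against 36.5, 61.1, 46.4, 49.7 and 50.3 CPM in control livers (log2 fold change 0.90 ± 0.22, edgeR adjusted p = 0.00875). Igf2bp3, an oncofetal RNA-binding protein, had 47.1, 59.8, 60.2, 50.5 and 56.7 CPM in athyroid livers, against 37.6, 46, 37.3, 34.5 and 33.7 CPM in control livers (log2 fold change 0.53 ± 0.14, edgeR adjusted p = 0.0124). Neither had overlapping groups, and both lost their calls in animals 37 to 50 (adjusted p = 0.105 and 0.0541). Peg3, an imprinted zinc finger gene (log2 fold change 0.91 ± 0.29, edgeR adjusted p = 0.0441), and Gpc3, the oncofetal glypican (log2 fold change 0.53 ± 0.17, edgeR adjusted p = 0.0447), had overlapping groups. Their calls were lost without athyroid animal 2019, 38 or 67 or control animal 42, 49, 50 or 59 (adjusted p from 0.0149 to 0.203 over the alternatives) for Peg3, and without athyroid animal 2019, 38 or 67 or control animal 42, 49, 50 or 59 (adjusted p from 0.0226 to 0.281 over the alternatives) for Gpc3. Igf2, H19 and Afp, which define the fetal liver, had log2 fold changes of -0.04 ± 0.27, 0.03 ± 0.11 and 0.76 ± 0.25 and were not called.

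The listed genes of cell division all had negative log2 fold changes, and a minority passed the test. Mcm10, a replication gene outside these lists, had a log2 fold change of 0.46 ± 0.29 and was not called. All 20 replication genes and all 22 mitosis genes had negative log2 fold changes (medians -0.59 and -1.14). Of these, 5 and 7 were called lower (25% and 31.8%, against 4.71% over all genes) and 0 higher. E2f8, an atypical repressor of the E2F family, had 12.8, 11.1, 2.42, 8.91 and 10.5 CPM in athyroid livers, against 45.5, 32.8, 48.2, 44.8 and 30.1 CPM in control livers (log2 fold change -2.13 ± 0.39, edgeR adjusted p = 0.000842). Every control liver lay above every athyroid liver. Mcm7, a subunit of the replicative helicase, had 45.2, 46.7, 34.1, 38.6 and 42.2 CPM in athyroid livers, against 50.6, 62.8, 59.6, 73.2 and 62.5 CPM in control livers (log2 fold change -0.58 ± 0.15, edgeR adjusted p = 0.0122). Cenpa, the centromeric histone, had 25, 26.1, 16.2, 22.7 and 24.9 CPM in athyroid livers, against 40.0, 38.1, 46.2, 46.8 and 41.9 CPM in control livers (log2 fold change -0.89 ± 0.24, edgeR adjusted p = 0.0194), and its call was lost without athyroid animal 38 (adjusted p from 0.00227 to 0.119 over the alternatives). Top2a, the topoisomerase of dividing cells, had 41.4, 67.3, 11.1, 53.5 and 39 CPM in athyroid livers, against 77.3, 101, 108, 119.6 and 108 CPM in control livers (log2 fold change -1.27 ± 0.40, edgeR adjusted p = 0.0434). Athyroid animal 38 was the lowest for each of these genes.

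Each mitosis call was lost without at least 1 library, and libraries of both groups had this effect. The count was 16 with the 10 libraries only, 12 with DESeq2, 2 without a filter and 0 in animals 37 to 50. Leaving out athyroid animal 38 left 0 mitosis genes called, control animal 49 or 50 left 1 each, athyroid animal 2019 left 2, athyroid animal 67 left 3, control animal 59 left 4, and control animal 42 or 47 left 5 each. Replication calls ranged from 2 to 5. Top2a was lost without athyroid animal 2019, 38, 55 or 67 or control animal 47, 49, 50 or 59 (adjusted p from 0.0299 to 0.219 over the alternatives). Cdk1, the kinase that starts mitosis (log2 fold change -1.04 ± 0.34, edgeR adjusted p = 0.0498), lost its call without athyroid animal 2019, 37, 38 or 67 or control animal 42, 47, 49, 50 or 59 (adjusted p from 0.0215 to 0.169 over the alternatives). Ccna2, its cyclin partner (log2 fold change -1.30 ± 0.42, edgeR adjusted p = 0.045), lost its call without athyroid animal 2019, 38 or 67 or control animal 42, 49, 50 or 59 (adjusted p from 0.021 to 0.175 over the alternatives). Of the replication genes, Ccnd1, the cyclin of G1 (log2 fold change -0.70 ± 0.21, edgeR adjusted p = 0.0308), lost its call without athyroid animal 38, 55 or 67 or control animal 47, 49 or 50 (adjusted p from 0.0121 to 0.189 over the alternatives), and Rrm1, a subunit of ribonucleotide reductase (log2 fold change -0.64 ± 0.19, edgeR adjusted p = 0.0331), without athyroid animal 2019, 38 or 67 or control animal 47, 49 or 50 (adjusted p from 0.0158 to 0.158 over the alternatives). Cdc6, a loader of the replicative helicase (log2 fold change -1.60 ± 0.47, edgeR adjusted p = 0.0293), lost its call without athyroid animal 38 or 67 or control animal 47, 49 or 50 (adjusted p from 0.00926 to 0.198 over the alternatives), and Cdca8, a subunit of the chromosomal passenger complex (log2 fold change -1.43 ± 0.40, edgeR adjusted p = 0.0221), without athyroid animal 38 or control animal 49 or 50 (adjusted p from 0.00646 to 0.143 over the alternatives). The spindle checkpoint kinase Bub1b (log2 fold change -1.42 ± 0.42, edgeR adjusted p = 0.0323) and the spindle motor Kif11 (log2 fold change -1.25 ± 0.38, edgeR adjusted p = 0.0364) lost theirs without athyroid animal 2019 or 38 or control animal 49 or 50 (adjusted p from 0.0119 to 0.145 over the alternatives) for Bub1b, and without athyroid animal 2019, 38 or 67 or control animal 49 or 50 (adjusted p from 0.0155 to 0.158 over the alternatives) for Kif11.

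Most cytochrome P450 genes and conjugating enzymes were not called. Of 33 P450 genes and reductases, 4 were higher and 4 lower (12.1% each way, against 4.92% and 4.71% over all genes, median 0.15). Cyp2c38 had 7.82, 10.6, 16.6, 5.52 and 3.13 CPM in athyroid livers, against 1.10, 0.846, 0.592, 0.203 and 0.953 CPM in control livers (log2 fold change 3.50 ± 0.61, edgeR adjusted p = 0.000443), and Cyp2c54 had 169, 281, 263, 157 and 156 CPM in athyroid livers, against 66.4, 61.9, 40.5, 33.1 and 103 CPM in control livers (log2 fold change 1.75 ± 0.40, edgeR adjusted p = 0.00633). The groups did not overlap in either, and both belong to a family of near copies on chromosome 19 among which reads may be split. Cyp3a genes on chromosome 5, 145345279 to 146113287, gave 4 falls of 8, in a stretch chosen after the values were seen. Cyp3a44 had 20.8, 17.3, 17.4, 21 and 44.9 CPM in athyroid livers, against 162, 143, 172, 199.7 and 128 CPM in control livers (log2 fold change -2.72 ± 0.30, edgeR adjusted p = 9.87e-07). Cyp3a16, a form of the fetal and young liver, had 44.7, 28.6, 31.5, 23.6 and 179 CPM in athyroid livers, against 242, 209.7, 251, 265 and 226 CPM in control livers (log2 fold change -1.95 ± 0.33, edgeR adjusted p = 0.000346). Athyroid animal 67 was the highest of its group in both and came near the controls in Cyp3a16. The near-identical Cyp3a41a and Cyp3a41b, which are female-biased in adult liver, had log2 fold changes of -2.52 ± 0.50 and -2.66 ± 0.52. Their neighbours Cyp3a11 and Cyp3a25 had 0.13 ± 0.10 and 0.15 ± 0.13 and were not called.

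Of 31 conjugating enzymes, 4 were higher and 2 lower (12.9% and 6.45%, against 4.92% and 4.71% over all genes, median -0.03). Ugt1a9, a glucuronosyltransferase, had 87.4, 105, 104, 99.9 and 138 CPM in athyroid livers, against 29.7, 25.6, 16.6, 15.4 and 19.8 CPM in control livers (log2 fold change 2.31 ± 0.37, edgeR adjusted p = 0.000184). It shares exons with other members of the Ugt1a locus, so its reads cannot be assigned with certainty. Gstt2 and Gstp1, glutathione transferases, were both higher without overlap (log2 fold change 1.08 ± 0.27, edgeR adjusted p = 0.00938 for Gstt2, and log2 fold change 0.64 ± 0.14, edgeR adjusted p = 0.00528 for Gstp1). Gsta2, another such enzyme, had 1.72, 24.3, 13.7, 9.34 and 1.47 CPM in athyroid livers, against 2.57, 3.55, 1.19, 1.42 and 4.95 CPM in control livers (log2 fold change 1.87 ± 0.57, edgeR adjusted p = 0.0357). Athyroid animals 2019 and 67 lay inside the control range, and the call was lost without athyroid animal 37 or 38 or control animal 42, 49 or 50 (adjusted p from 0.00166 to 0.165 over the alternatives). Sult5a1, a sulfotransferase, had 0.382, 0.73, 0.606, 0.637 and 1.10 CPM in athyroid livers, against 3.30, 1.69, 12.2, 5.27 and 1.52 CPM in control livers (log2 fold change -2.73 ± 0.73, edgeR adjusted p = 0.0166), and its call was lost without control animal 49 (adjusted p from 0.000637 to 0.115 over the alternatives). Ugt2b34 was lower by 0.23 ± 0.07 (adjusted p = 0.0381), a call lost without athyroid animal 2019, 38 or 67 or control animal 42, 49 or 50 (adjusted p from 0.00445 to 0.286 over the alternatives).

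Among 30 nuclear receptors and liver transcription factors, 2 were higher and 3 lower (6.67% and 10%, against 4.92% and 4.71% over all genes, median -0.06). Esr1, the oestrogen receptor, had 96.2, 79.3, 76.3, 92.7 and 56.5 CPM in athyroid livers, against 171, 156, 170.0, 201 and 193 CPM in control livers (log2 fold change -1.15 ± 0.14, edgeR adjusted p = 2.94e-06). Ppard, a fatty acid receptor, had 30.3, 28.6, 29.5, 27.8 and 29.3 CPM in athyroid livers, against 66.6, 40.4, 58.1, 58.6 and 53.4 CPM in control livers (log2 fold change -0.93 ± 0.15, edgeR adjusted p = 0.000272). Pparg, its relative known from fat cells, was higher, with 75, 60.4, 63.6, 62 and 60.8 CPM in athyroid livers, against 30.8, 49.4, 32.6, 40.8 and 37 CPM in control livers (log2 fold change 0.75 ± 0.13, edgeR adjusted p = 0.000496). In all 3 the groups stood apart. Nr3c1, the glucocorticoid receptor, was lower (log2 fold change -0.26 ± 0.09, edgeR adjusted p = 0.0484), a call lost without athyroid animal 2019, 37, 38 or 67 or control animal 42, 49, 50 or 59 (adjusted p from 0.022 to 0.129 over the alternatives). Of 8 adipocyte markers 3 were tested, of which 1, Cidec, was called higher (33.3%, against 4.92% over all genes) and 0 lower. The adipocyte markers Adipoq, Cfd, Lep, Plin1 and Retn were too low to be tested. Of 19 clock genes 2 were higher (10.5%, against 4.92% over all genes) and 0 lower (median 0.12). These were Tef, an output factor of the clock (log2 fold change 0.47 ± 0.11, edgeR adjusted p = 0.00848), and Cry2, a repressor within it (log2 fold change 0.33 ± 0.08, edgeR adjusted p = 0.0116). The times of day at which livers were taken are not given in the labels.

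Secreted proteins of the liver were called about as often as all genes or not at all. Of 20 coagulation genes 1 was lower (5%), of 23 complement genes 1 was lower (4.35%), against 4.71% over all genes, and of 20 acute phase genes 0 were called (medians 0.03, -0.03 and 0.04). Of the acute phase genes, 1 had an unadjusted p under 0.05 with edgeR and 0 were called by DESeq2. The called ones were Mbl2, a lectin that starts complement (log2 fold change -0.50 ± 0.13, edgeR adjusted p = 0.0126), and F11, coagulation factor XI (log2 fold change -0.40 ± 0.13, edgeR adjusted p = 0.0499), whose call was lost without athyroid animal 37, 38, 55 or 67 or control animal 42, 49, 50 or 59 (adjusted p from 0.0231 to 0.14 over the alternatives). The call of Mbl2 was lost in animals 37 to 50 (edgeR adjusted p = 0.316). Matrix genes gave 5 falls and 1 rise of 25 (20% and 4%, against 4.71% and 4.92% over all genes, median -0.09). Lum, the proteoglycan lumican, had 37, 35, 32.7, 38.8 and 45.7 CPM in athyroid livers, against 79.1, 67, 88.7, 89 and 70.1 CPM in control livers (log2 fold change -1.06 ± 0.19, edgeR adjusted p = 0.00066). Lama2, a laminin chain, had 6.49, 9.48, 7.67, 9.12 and 9.57 CPM in athyroid livers, against 15.4, 21.2, 21.1, 16.6 and 14.5 CPM in control livers (log2 fold change -1.07 ± 0.19, edgeR adjusted p = 0.000619). Both were without overlap. Col4a3 and Col4a4, basement membrane collagens transcribed from a shared start region on chromosome 1, were also lower. Col4a3 had 2.10, 2.19, 1.62, 2.33 and 3.87 CPM in athyroid livers, against 18.4, 8.80, 56.9, 33.1 and 13.9 CPM in control livers (log2 fold change -3.41 ± 0.68, edgeR adjusted p = 0.00176), and Col4a4 a log2 fold change of -2.08 ± 0.49. The athyroid values of Col4a3 were alike, while the control values spread widely around animal 49. Col3a1, an interstitial collagen (log2 fold change -0.64 ± 0.17, edgeR adjusted p = 0.0195), lost its call without athyroid animal 38 or control animal 50 (adjusted p from 0.00689 to 0.0915 over the alternatives). Timp3, an inhibitor of matrix proteases and the rise among them (log2 fold change 0.64 ± 0.21, edgeR adjusted p = 0.0496), lost its call without athyroid animal 2019, 38, 55 or 67 or control animal 42, 47, 49, 50 or 59 (adjusted p from 0.00671 to 0.316 over the alternatives).

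The largest rises, among genes with a mean of at least 5 CPM and no overlap, came from many functions. Slc4a9, a bicarbonate transporter known from kidney, had 26.3, 30.5, 75.9, 9.12 and 77.1 CPM in athyroid livers, against 0.917, 7.62, 0.79, 1.42 and 2.29 CPM in control livers (log2 fold change 4.02 ± 1.03, edgeR adjusted p = 0.0125). Control animal 47 stood out among the controls and the athyroid values spread from 9.12 to 77.1 CPM. Gucy2c, the guanylate cyclase receptor of the gut hormones guanylin and uroguanylin, had 51.3, 46.3, 73.9, 53.3 and 78.6 CPM in athyroid livers, against 10.5, 16.1, 11.7, 5.88 and 10.5 CPM in control livers (log2 fold change 2.46 ± 0.27, edgeR adjusted p = 7.84e-07). Tuba8, an alpha tubulin, had 33.6, 40.3, 51.7, 26.9 and 42.9 CPM in athyroid livers, against 2.75, 10.8, 5.13, 6.49 and 4.38 CPM in control livers (log2 fold change 2.71 ± 0.44, edgeR adjusted p = 0.000248). In both genes each athyroid liver exceeded each control by a wide margin. Col25a1, a transmembrane collagen, had 14.1, 17.5, 22.4, 15.5 and 37.4 CPM in athyroid livers, against 2.75, 5.75, 2.37, 3.85 and 6.48 CPM in control livers (log2 fold change 2.32 ± 0.33, edgeR adjusted p = 4.64e-05). Col5a3, a fibrillar collagen chain, had 56.1, 63.3, 51.9, 48.2 and 23.2 CPM in athyroid livers, against 13.8, 12, 7.11, 8.72 and 3.62 CPM in control livers (log2 fold change 2.41 ± 0.45, edgeR adjusted p = 0.00096). Snhg11, a host gene of small nucleolar RNAs, had 11.1, 18.1, 11.7, 33.3 and 28.5 CPM in athyroid livers, against 4.59, 6.94, 2.17, 3.45 and 2.67 CPM in control livers (log2 fold change 2.35 ± 0.36, edgeR adjusted p = 0.000114), and Osbpl3, an oxysterol-binding relative, had a log2 fold change of 2.35 ± 0.46. Gprc5b, an orphan receptor, and Cidec, a lipid droplet protein, had log2 fold changes of 2.53 ± 0.34 and 2.37 ± 0.72. Cidec was the only one of these 12 whose call was lost without a single library, namely without athyroid animal 38 or 67 or control animal 42, 49, 50 or 59 (adjusted p from 0.00961 to 0.153 over the alternatives). The other members of the 12 were Dlk1, Ugt1a9 and Cxcr2. The plot by liver shows 6 genes that were higher and 6 that were lower.

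**Figure D3:**
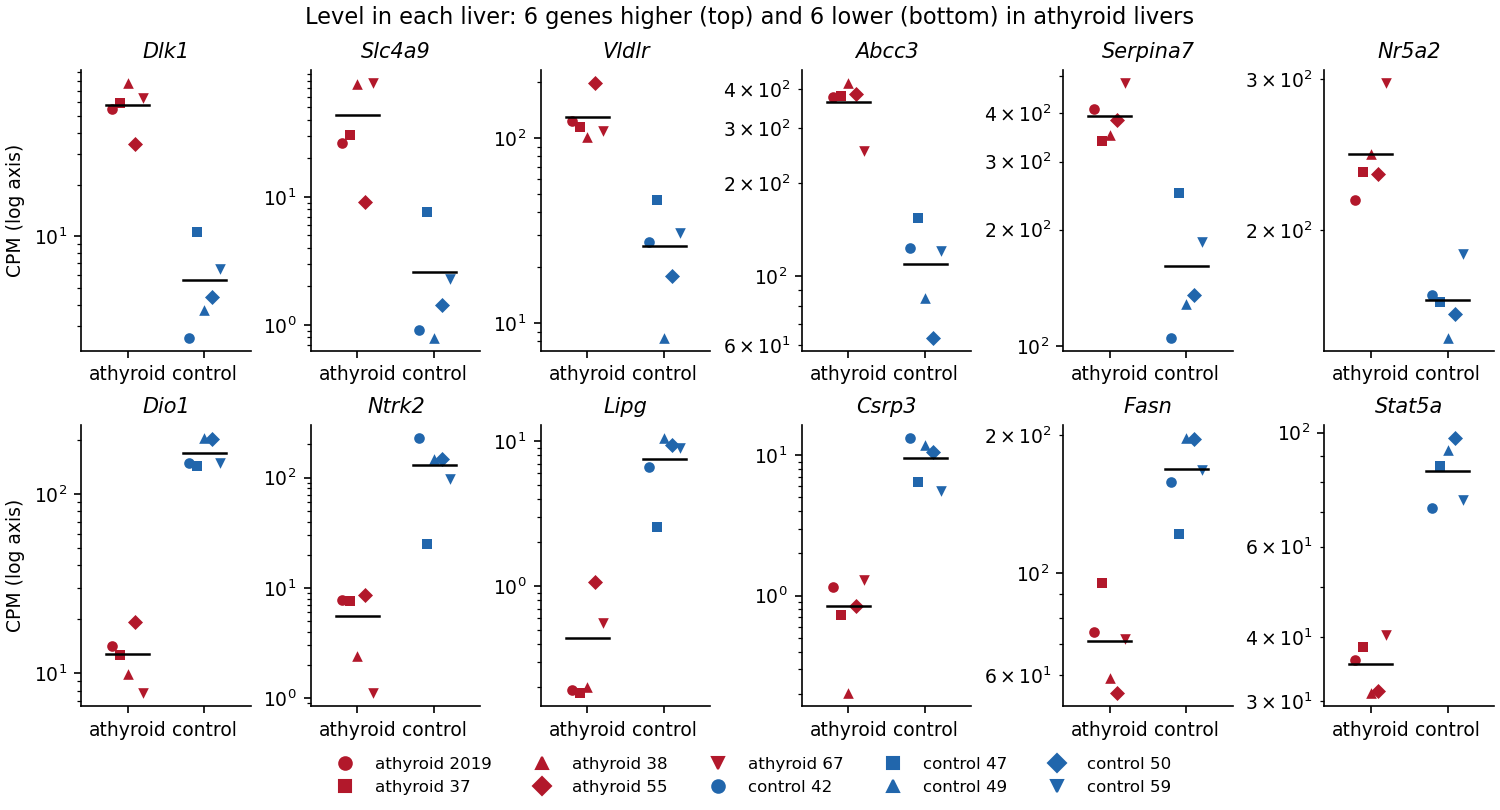
Each panel is 1 gene, with the 5 athyroid livers at the left and the 5 control livers at the right, the level in CPM on a log axis and a bar at the group mean. The upper row shows Dlk1, Slc4a9, Vldlr, Abcc3, Serpina7 and Nr5a2, and the lower row Dio1, Ntrk2, Lipg, Csrp3, Fasn and Stat5a. No panel has overlapping groups.

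The 12 largest falls under the same rule held a receptor, muscle and eye genes and a run of amylase genes. Ntrk2, the receptor of brain-derived neurotrophic factor, had 7.82, 7.66, 2.42, 8.70 and 1.10 CPM in athyroid livers, against 228, 25, 147, 149 and 96.2 CPM in control livers (log2 fold change -4.54 ± 0.75, edgeR adjusted p = 0.000272). Control animal 47 was the lowest control. Csrp3, a LIM protein of striated muscle, had 1.15, 0.73, 0.202, 0.849 and 1.29 CPM in athyroid livers, against 13.2, 6.43, 11.8, 10.5 and 5.53 CPM in control livers (log2 fold change -3.45 ± 0.48, edgeR adjusted p = 2.61e-05). None of the 7 tested skeletal muscle markers was called by edgeR or DESeq2, with 0 at an unadjusted edgeR p under 0.05 and with summed levels of 2.63 to 12.9 CPM in athyroid livers and 2.20 to 3.62 CPM in control livers and Myh4 at the lowest value in all 10. Csrp3, E2f8 and the clone gene Gm2788, with 2.48, 2.19, 0.606, 3.82 and 1.84 CPM in athyroid livers, against 48.8, 21.3, 41.9, 32.4 and 14.9 CPM in control livers (log2 fold change -3.86 ± 0.54, edgeR adjusted p = 3.60e-05), lie together on chromosome 7, 48830398 to 48913040, where 3 of the 4 tested genes were lower. The other gene, Nav2, had a log2 fold change of 0.03 ± 0.19 and was not called. This stretch was chosen after the values were seen. Clec2h, a C-type lectin, had 10.5, 3.47, 1.01, 3.18 and 0.736 CPM in athyroid livers, against 38.7, 13, 30.6, 39.3 and 30.1 CPM in control livers (log2 fold change -2.99 ± 0.72, edgeR adjusted p = 0.00823). Fam25c had 4.20, 0.912, 1.41, 2.12 and 1.10 CPM in athyroid livers, against 13.2, 9.65, 13.4, 17.2 and 12.4 CPM in control livers (log2 fold change -2.75 ± 0.41, edgeR adjusted p = 9.26e-05), and Rp1, known from photoreceptors, had 2.10, 1.46, 1.21, 1.06 and 1.66 CPM in athyroid livers, against 2.20, 14.7, 21.3, 13 and 5.34 CPM in control livers (log2 fold change -2.89 ± 0.63, edgeR adjusted p = 0.00415). Control animal 42 was close to the athyroid livers in Rp1. The other members of the 12 were Dio1, Col4a3, Cyp3a44 and 4 amylase genes. Chosen after its values were seen, 9030619P08Rik, listed as a pseudogene, had 2.67, 2.01, 1.21, 6.15 and 5.89 CPM in athyroid livers, against 112, 78, 95.2, 97.3 and 85.6 CPM in control livers.

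Amylase genes lie between 113147656 and 113606699 on chromosome 3, where 6 of 8 tested genes were lower, in a stretch chosen after the values were seen. Amy2a1, a pancreatic amylase, had 2.86, 5.47, 1.01, 0.424 and 1.10 CPM in athyroid livers, against 19.6, 12.9, 56.9, 35.7 and 25.5 CPM in control livers (log2 fold change -3.74 ± 0.55, edgeR adjusted p = 6.27e-05). Amy2a5 had 8.97, 28.3, 6.87, 1.27 and 1.84 CPM in athyroid livers, against 41.1, 32, 107, 73.4 and 58.9 CPM in control livers (log2 fold change -2.70 ± 0.59, edgeR adjusted p = 0.00415). Athyroid animal 37 was the highest of its group in both, and no group overlapped. Amy2a2, Amy2a3, Amy2a4 and Amy2b had log2 fold changes of -2.67, -2.77, -2.66 and -2.65, and as near-identical copies they share reads. Amy1, the amylase of salivary gland and liver, had 199 to 222 CPM in athyroid livers, against 172 to 225 CPM in control livers (log2 fold change 0.04 ± 0.08, edgeR adjusted p = 0.795). Of 9 tested pancreatic acinar markers only Amy2a5 and Cela1, an elastase (log2 fold change -0.80 ± 0.17, edgeR adjusted p = 0.00264), were called, both lower, and the other 7 had positive log2 fold changes. The falls are 22.2% of the tested markers, against 4.71% over all genes. The summed acinar markers ran from 17.3 to 242 CPM in athyroid livers and 66.2 to 133 CPM in control livers.

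Among the genes with the most reads, the 5 called rises included Slc7a2, Uox, Slc38a4 and Peg3. Slc7a2, a carrier of cationic amino acids, had 821, 935, 1239, 1155 and 1012 CPM in athyroid livers, against 715, 587, 518, 416 and 725 CPM in control livers (log2 fold change 0.80 ± 0.20, edgeR adjusted p = 0.0103). Slc38a4, a carrier of neutral amino acids, was higher by 0.30 ± 0.08 (adjusted p = 0.0133). Uox, the urate oxidase of peroxisomes (log2 fold change 0.44 ± 0.14, edgeR adjusted p = 0.0439), lost its call without athyroid animal 37, 38, 55 or 67 or control animal 47, 49 or 50 (adjusted p from 0.0285 to 0.195 over the alternatives). The 5 falls were Igf1, Glul, Ugt2b34, Paqr9 and Rab43. Paqr9, a membrane protein of the progestin and adipoQ receptor family, had 503, 231, 234, 336 and 699.8 CPM in athyroid livers, against 742, 816, 731, 876 and 652 CPM in control livers (log2 fold change -0.93 ± 0.23, edgeR adjusted p = 0.00938). Athyroid animal 67 reached the control range while animals 37 and 38 were far below it. Its call was lost with the 10 libraries fitted alone and without the libraries with raised acinar genes, with log2 fold changes from -1.77 to -0.78 and adjusted p up to 0.0586 over the alternatives. Rab43, a small GTPase, had 441, 369.5, 406, 411 and 519.6 CPM in athyroid livers, against 591, 549.6, 589.7, 560.5 and 524 CPM in control livers, with no overlap (log2 fold change -0.39 ± 0.08, edgeR adjusted p = 0.00186).

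Immediate early and heat shock genes went both ways, with 3 higher and 2 lower of 22 (13.6% and 9.09%, against 4.92% and 4.71% over all genes, median 0.36). Nr4a1, an orphan receptor induced within minutes of a stimulus, had 153, 243, 113, 236 and 98 CPM in athyroid livers, against 11.9, 27.8, 5.13, 44.8 and 82.5 CPM in control livers (log2 fold change 2.29 ± 0.66, edgeR adjusted p = 0.0268), and its call was lost without athyroid animal 37 or 55 or control animal 42, 47, 49 or 50 (adjusted p from 0.0114 to 0.127 over the alternatives). Ier3, another immediate early gene, was higher by 0.92 ± 0.23 (adjusted p = 0.0118). Btg2, an antiproliferative early gene (log2 fold change 0.95 ± 0.31, edgeR adjusted p = 0.0477), lost its call without athyroid animal 2019, 37, 38 or 55 or control animal 42, 47, 49 or 50 (adjusted p from 0.0195 to 0.144 over the alternatives). The chaperones Hsph1 and Hsp90aa1 were lower. Hsph1 had 53.2, 47.8, 40.0, 38.2 and 28.2 CPM in athyroid livers, against 81.7, 73.1, 73.7, 71.8 and 84 CPM in control livers (log2 fold change -0.89 ± 0.19, edgeR adjusted p = 0.00279). Hsp90aa1 fell by 0.52 ± 0.10 on the log2 scale (adjusted p = 0.00189). Of 22 stress response genes 1 was higher and 1 lower, 4.55% each way and so near the shares over all genes. Chac1, a target of the integrated stress response (log2 fold change -2.11 ± 0.62, edgeR adjusted p = 0.0295), lost its call without athyroid animal 37, 38 or 67 or control animal 42 (adjusted p from 0.00487 to 0.194 over the alternatives). Sesn2, a stress-induced sestrin (log2 fold change 0.74 ± 0.20, edgeR adjusted p = 0.0202), lost its call without athyroid animal 38 or control animal 42, 49 or 50 (adjusted p from 0.00814 to 0.0712 over the alternatives).

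The tissue was checked against its defining markers. Summed hepatocyte markers were 7553 to 7994 CPM in athyroid livers and 6837 to 7593 CPM in control livers, and 0 of the 10 were called by edgeR, by DESeq2 or at an unadjusted p under 0.05. Of 11 tested neutrophil markers 2 were called higher (18.2%, against 4.92% over all genes), and all had a positive log2 fold change (median 1.02). Their summed level was 115 to 374 CPM in athyroid livers and 56.7 to 162 CPM in control livers, and athyroid animals 37 and 38 lay within the control range. Cxcr2, the chemokine receptor of neutrophils, had 18.1, 6.20, 10.1, 16.3 and 14.7 CPM in athyroid livers, against 1.28, 2.37, 1.97, 2.64 and 1.91 CPM in control livers (log2 fold change 2.67 ± 0.49, edgeR adjusted p = 0.000819), and Csf3r, the receptor of granulocyte growth factor, had 38.2, 15.7, 23.2, 30.1 and 33.3 CPM in athyroid livers, against 14.5, 12.2, 13.6, 13.4 and 11.2 CPM in control livers (log2 fold change 1.11 ± 0.26, edgeR adjusted p = 0.0077). Neither overlapped. The part of neutrophil RNA in other results was not tested. Erythroid, lymphocyte and cholangiocyte markers had 0 called of 11, 11 and 6 by edgeR and by DESeq2, and 2, 0 and 0 with an unadjusted edgeR p under 0.05. Summed erythroid markers were 885 to 1121 CPM in athyroid livers and 827 to 1043 CPM in control livers. Kupffer cells gave 1 fall of 11, Clec4f (log2 fold change -0.40 ± 0.12, edgeR adjusted p = 0.0333), and stellate cells 1 fall of 11, Lrat (log2 fold change -0.59 ± 0.19, edgeR adjusted p = 0.0429). In each of these lists the fall is 9.09% of the members, against 4.71% over all genes. Clec4f was lost without athyroid animal 37, 38 or 55 or control animal 42, 49 or 50 (adjusted p from 0.000273 to 0.118 over the alternatives), and Lrat without athyroid animal 37, 38, 55 or 67 or control animal 42, 47, 49, 50 or 59 (adjusted p from 0.00837 to 0.125 over the alternatives). Summed stellate markers were 792 to 1124 CPM in athyroid livers and 1104 to 1204 CPM in control livers, with overlap only between the highest athyroid and the lowest control liver.

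Of 12 sinusoidal endothelial markers 2 were higher and 1 lower (16.7% and 8.33%, against 4.92% and 4.71% over all genes). Kdr, the VEGF receptor 2, was higher (log2 fold change 0.36 ± 0.09, edgeR adjusted p = 0.00858) and Flt4, the VEGF receptor 3, lower (log2 fold change -0.36 ± 0.09, edgeR adjusted p = 0.0156). The call of Kdr was lost in animals 37 to 50 (edgeR adjusted p = 0.286). That of Flt4 was lost without athyroid animal 38 (adjusted p from 0.00531 to 0.176 over the alternatives). Stab1, a scavenger receptor (log2 fold change 0.48 ± 0.13, edgeR adjusted p = 0.023), lost its call without athyroid animal 38 or 67 or control animal 42, 49 or 50 (adjusted p from 0.00822 to 0.113 over the alternatives). Hepatocytes around the central vein gave 3 falls of 11 (27.3%) and those around the portal tract 1 rise and 1 fall of 10 (10% each way). Over all genes 4.92% were higher and 4.71% lower. Summed central vein markers were 2150 to 2729 CPM in athyroid livers and 2195 to 2873 CPM in control livers. Summed portal tract markers were 2417 to 3316 CPM and 1992 to 2992 CPM, and both sums overlapped between the groups. Rhbg, an ammonium carrier of pericentral cells, had 4.96, 3.28, 3.03, 2.33 and 4.97 CPM in athyroid livers, against 11.6, 6.77, 15.2, 14.4 and 9.91 CPM in control livers (log2 fold change -1.62 ± 0.28, edgeR adjusted p = 0.000364). Lgr5, a Wnt target of the same cells, had 37.2, 22.8, 33.5, 12.7 and 32 CPM in athyroid livers, against 34.1, 72.4, 41.1, 62.9 and 54.1 CPM in control livers (log2 fold change -0.93 ± 0.21, edgeR adjusted p = 0.00607), with overlap. Cdh1, the periportal cadherin, had 166, 130.4, 163, 97.2 and 180.1 CPM in athyroid livers, against 181, 268, 314, 304 and 253 CPM in control livers, with no overlap (log2 fold change -0.84 ± 0.15, edgeR adjusted p = 0.00066). Hsd17b13, a lipid droplet enzyme of periportal cells, was higher (log2 fold change 0.31 ± 0.08, edgeR adjusted p = 0.00923). The plot of lists gives the share of called members for each list beside that of all genes.

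**Figure D4:**
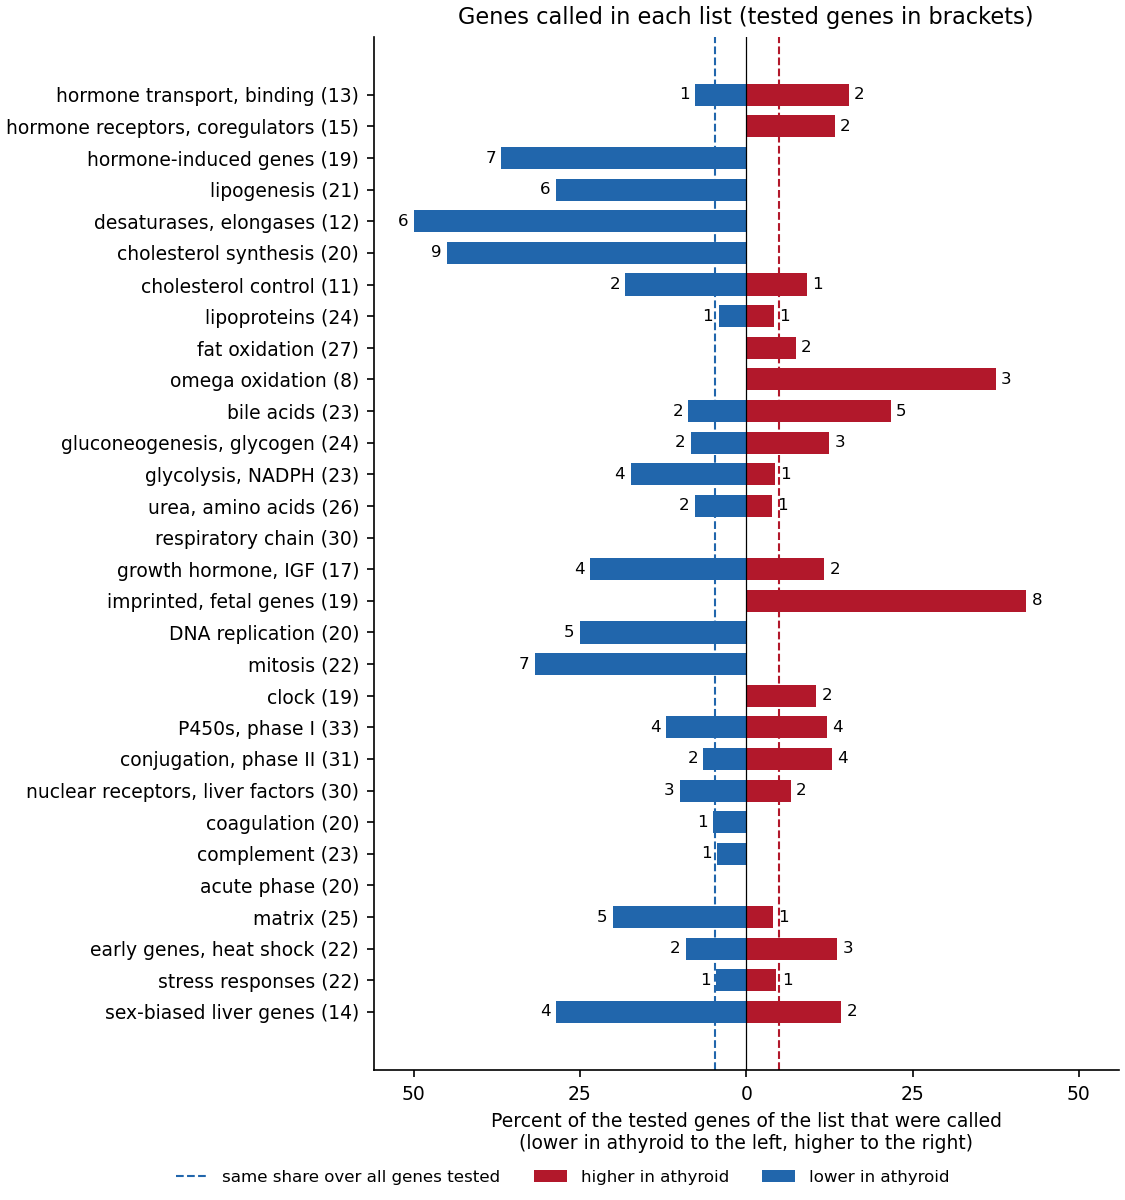
For each gene list, named at the left, the bars give the percentage of tested members called higher and called lower in athyroid livers. Bars to the left count genes that were lower and bars to the right genes that were higher. Dashed lines mark the shares over all 17057 genes, 4.92% higher and 4.71% lower.

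Genes linked to Pax8 on chromosome 2 are inherited together with the deleted allele, and the labels do not give the strain in which the deletion was made. Within 10 Mb of Pax8, 19 of 245 tested genes (7.76%) were called, 10 higher and 9 lower, against 9.63% of all genes. Windows of 5 and 20 Mb held 12 of 133 (9.02%) and 24 of 360 (6.67%), and within 1 Mb 7 of 41 (17.1%) were called. Il1rn, the interleukin 1 receptor antagonist, had 123, 80.4, 101, 71.5 and 158 CPM in athyroid livers, against 17.2, 53.8, 26.5, 14.4 and 22.9 CPM in control livers (log2 fold change 1.98 ± 0.47, edgeR adjusted p = 0.0077). Angptl2, a secreted angiopoietin-like protein, had 16.2, 17, 16.8, 23.1 and 22.8 CPM in athyroid livers, against 87.7, 84.1, 83.1, 89.6 and 74.1 CPM in control livers (log2 fold change -2.13 ± 0.26, edgeR adjusted p = 4.99e-06). Both stood apart between the groups. Nsmf, Abca2 and Uck1 were lower, by 0.63 ± 0.11, 0.94 ± 0.23 and 0.83 ± 0.20 on the log2 scale, and Arrdc1 and Sh2d3c higher, with log2 fold changes of 0.71 ± 0.16 and 0.38 ± 0.09, all 5 without overlap. The others that kept their call without any 1 library were Uap1l1, Ppapdc3, Entpd8 and Notch1. Uck1 and Notch1 lost theirs without the libraries with raised acinar genes (adjusted p = 0.0698 and 0.114), and Il1rn, Abca2, Sh2d3c, Uap1l1, Ppapdc3 and Entpd8 in animals 37 to 50. The call of Gm13363 was lost without athyroid animal 55 or control animal 50 (adjusted p from 0.00656 to 0.0603 over the alternatives), and that of Fcna, a ficolin, without athyroid animal 38 (adjusted p from 0.000982 to 0.0539 over the alternatives). Cacna1b, a calcium channel subunit, lost its call without athyroid animal 2019, 37, 38 or 67 or control animal 42, 49, 50 or 59 (adjusted p from 0.0163 to 0.148 over the alternatives), and Slc2a6, a hexose carrier relative, without athyroid animal 2019 or 55 or control animal 42, 49 or 50 (adjusted p from 0.0248 to 0.744 over the alternatives). Adamtsl2, a secreted matrix protein, lost its call without athyroid animal 2019, 37, 55 or 67 or control animal 42, 49 or 50 (adjusted p from 0.017 to 0.283 over the alternatives), and Zer1, a subunit of ubiquitin ligases, without athyroid animal 38, 55 or 67 or control animal 47, 49, 50 or 59 (adjusted p from 0.00853 to 0.315 over the alternatives). Eng, the endothelial coreceptor endoglin, lost its call without athyroid animal 37, 38 or 55 or control animal 42 or 47 (adjusted p from 0.0128 to 0.204 over the alternatives), and Mvb12b, of the endosomal sorting machinery, without athyroid animal 2019, 38 or 67 or control animal 42, 49, 50 or 59 (adjusted p from 0.0081 to 0.456 over the alternatives).

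**Figure D5:**
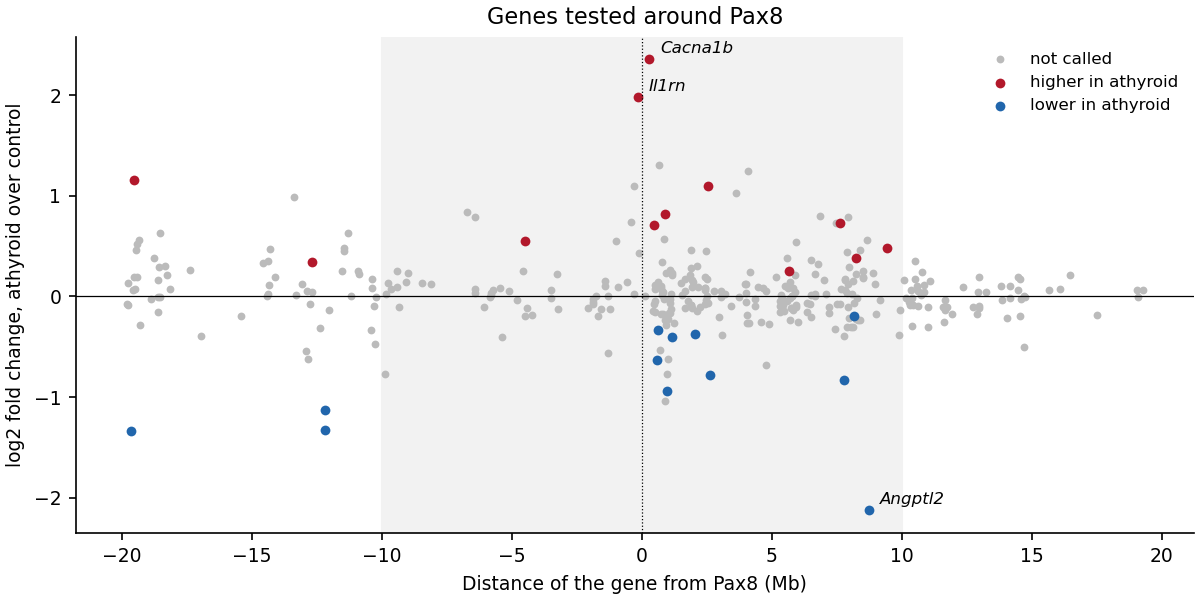
Each point is a tested gene within 20 Mb of Pax8, placed by its distance from Pax8 in Mb on the horizontal axis, with the log2 fold change of athyroid over control on the vertical axis. The shaded band reaches 10 Mb to each side and holds 245 tested genes, of which 10 were called higher and 9 lower. Cacna1b and Il1rn, the largest rises among the genes drawn, lie beside Pax8.

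The same genes were read in athyroid pups given hormone, as lowest, median and highest level. These livers are not tested here and share the athyroid vehicle group as their own baseline. Dio1 had 18.8, 28.4 and 64.5 CPM after T4, 60.2, 124 and 203 CPM after T3 and 115, 195 and 245 CPM after T3+T4, beside means of 12.7 ± 4.42 CPM in athyroid livers and 169 ± 31.8 CPM in control livers (SD, n = 5 each) after vehicle. Lipg had 0.371, 0.85 and 4.28 CPM after T4, 1.45, 3.93 and 5.67 CPM after T3 and 3.23, 7.68 and 33.6 CPM after T3+T4, beside 0.438 ± 0.382 CPM in athyroid livers and 7.58 ± 3.15 CPM in control livers after vehicle. For both genes the median was lowest after T4 and highest after T3+T4. Vldlr had 43, 65.3 and 152 CPM after T4, 17.6, 45.1 and 86.3 CPM after T3 and 7.90, 12.8 and 32.8 CPM after T3+T4, beside 129 ± 39.3 CPM in athyroid livers and 26.1 ± 14.3 CPM in control livers after vehicle. Dlk1 had 14.5, 59.8 and 96.3 CPM after T4, 16.9, 34.8 and 52.6 CPM after T3 and 9.74, 32.3 and 43.3 CPM after T3+T4, beside 58.1 ± 15.7 CPM in athyroid livers and 5.58 ± 3.17 CPM in control livers after vehicle, so the median after each treatment lay above the control mean. Esr1 had 87.5, 111 and 139 CPM after T4, 144, 157 and 203 CPM after T3 and 155, 196 and 225 CPM after T3+T4, beside 80.2 ± 15.7 CPM in athyroid livers and 178 ± 18.6 CPM in control livers after vehicle. Cyp2c38 had 0.482, 1.10 and 6.31 CPM after T4, 0.151, 0.866 and 1.84 CPM after T3 and 0.334, 0.538 and 1.60 CPM after T3+T4, beside 8.72 ± 5.18 CPM in athyroid livers and 0.739 ± 0.353 CPM in control livers after vehicle. The groups hold 8 livers after T4, 6 after T3 and 7 after T3+T4.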

How the data were processed

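Whole-number counts per gene were taken as deposited, 43629 genes in 31 libraries, with 1 as the lowest value (50.1% of values), so 1 may have been added to each count at a step not given in the sources used here. Per the labels' protocols, each library was made from 1 ug of RNA whose integrity number was at least 7.5. Trimmomatic, BWA 0.7.10, bcl2fastq and DESeq are named in the submitters' processing notes, which also name a human build (GRCh38), whereas the columns carry mm10 in their names. The counter, its use of strand and the annotation are not given in the sources used here. The 37 mitochondrial genes are at 1 in every library. Of the gene IDs, 42462 (97.3%) are in GENCODE M21 (GRCm38), which gave positions and exonic lengths. Counts level off near 2 per exonic base, and 94 tested genes exceeded 1, so differences of such genes may be compressed.

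The deposited counts were tested with edgeR 4.0.16 (R 4.3.3) by glmQLFit and glmQLFTest, after TMM scaling and filterByExpr, fitting the 31 libraries together with a mean for each group, and p-values of the 17057 genes were adjusted after Benjamini and Hochberg, with a threshold of 0.05. Levels are CPM after TMM, with SD over 5 livers, and fold changes carry the fit's SE. Floors (3 reads over a group) and 95% exact intervals cover counting error only. Library measures were compared by two-sided exact permutation tests, for which 0.00794 is the smallest p. The test was tried on simulated counts with known changes. Closest libraries differed by more than sampling noise (chi-square per degree of freedom 3.07), so each counted once. pandas 2.3.3, scipy 1.17.1 and matplotlib 3.10.9 were used.

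The members and the 43 lists (724 genes) were chosen with earlier results of these data known. Named were Pax8, Dio1, Dio2 and Dio3, the 12 largest rises and 12 largest falls with a mean of at least 5 CPM and no overlap between groups (genes with a proper symbol only), called list members, the 5 most abundant genes called in each direction and called genes within 10 Mb of Pax8. A few genes that these rules name are counted but not reported here. Alternatives were median-of-ratios or library-total scaling, no filter, a mean of at least 5 CPM, the 10 libraries only, DESeq2 1.42.0, covariates for sex or library total, 1 subtracted, a correction for levelling off, animals 37 to 50 only, and each library left out.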

Additional observations from a re-analysis of the deposited data

Results flagged for a closer look

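Among 376 groups of 5 values examined, 24 (6.38%) had 1 liver far from the other 4 of its group, against about 5% by chance. Control animal 47 was the high liver in 5 of them. It had 7.62 CPM against 0.79 to 2.29 CPM in the other controls for Slc4a9, the bicarbonate transporter, 9.82 CPM against 3.05 to 4.77 CPM for Cidec, the lipid droplet protein, and 18.8 CPM against 5.68 to 9.15 CPM for Osbpl3. For the omega-hydroxylases it had 253 CPM against 110.3 to 129 CPM of Cyp4a10 and 458 CPM against 344 to 375 CPM of Cyp4a14. All 5 genes were called higher in athyroid livers, so any high control lies nearer to the athyroid livers in them.

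Control animal 42 was high in 4. The imprinted RNAs Meg3 and Rian stood at 58 CPM against 22.5 to 24.9 CPM in the other controls and 35.4 CPM against 16.4 to 19.5 CPM. Chac1, of the stress response, stood at 45.9 CPM against 5.58 to 12.8 CPM, and Ppapdc3, a gene near Pax8, at 7.34 CPM against 5.27 to 5.75 CPM.

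Athyroid animal 67 was flagged in 5. It was high in Cyp3a44 (44.9 CPM against 17.3 to 21 CPM in the other athyroid livers) and in its neighbour Cyp3a16 (179 CPM against 23.6 to 44.7 CPM). Srebf2, the sterol factor, was at 110.3 CPM against 77.2 to 84.9 CPM and the phosphatase Pdp2 at 55.1 CPM against 27.4 to 34.4 CPM, while the exporter Abcc3 was low, at 254 CPM against 378 to 419.7 CPM.

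Athyroid animal 37 was high in 4 amylase genes, with 28.3 CPM against 1.27 to 8.97 CPM for Amy2a5, 28.5 CPM against 1.70 to 8.02 CPM for Amy2a2, 25.7 CPM against 3.50 to 9.16 CPM for Amy2a4 and 5.65 CPM against 1.21 to 2.29 CPM for Amy2b. Reads of these near copies are shared, so they are not separate observations. Athyroid animal 2019 was high in Clec2h (10.5 CPM against 0.736 to 3.47 CPM), Pklr (144 CPM against 114 to 122 CPM) and Pparg (75 CPM against 60.4 to 63.6 CPM). Athyroid animal 55 was high in Vldlr (198 CPM against 102 to 123 CPM) and Ier3 (21.2 CPM against 13.1 to 14.7 CPM), and athyroid animal 38 in Slco1a1 (64.6 CPM against 21.4 to 31.6 CPM). None of these values was set against a cause.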

How the results depend on the processing

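No value of a named called gene changed its sign under any alternative that gave one. The counts called higher and lower, 839 and 803, came to 812 and 822 with median-of-ratios scaling, 752 and 859 with library totals, 799 and 705 at a mean of at least 5 CPM, 806 and 835 with the 10 libraries only, 945 and 941 with DESeq2, 752 and 687 with sex and 994 and 852 with library total as a covariate, 794 and 834 with 1 subtracted, and 885 and 793 after correction for levelling off. Larger changes came without a filter (504 and 678), with animals 37 to 50 only (335 and 413, from 2 athyroid and 4 control livers, all female by their genes), and without the 3 libraries with raised acinar genes (665 and 503). Of the 1642 called genes, 505 (30.8%) were shared with the calls in animals 37 to 50. Leaving out 1 library gave 458 to 874 higher and 477 to 730 lower. The cause was not tested. Of 180 named called genes, 53 were called under all 22 alternatives, 3 in all that gave a value, 124 were lost in at least 1 and 55 in at least 5, and 114 were called without any 1 library. Mitosis calls were 0 to 7 without single libraries, 16 with the 10 libraries only, 12 with DESeq2 and 2 without a filter. An alternative planned on acinar and muscle markers could not be run because every control library passed its limit. Control animals 42, 49, 50 and 59 did so only through Cela1 and Amy2a5, and control animal 47 also without these genes. No paired analysis was possible because the groups share no replicate numbers. Depth limits genes with few reads, such as Pax8 and Dio2, for which only large differences were detectable.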

Other observations

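In 4 called genes with a group mean of at least 5 CPM, a single liver held at least 70% of its group's summed level; these genes were chosen after their values were seen. Cym, the stomach protease chymosin, had 9.92, 199, 27.7, 2.12 and 1.29 CPM in athyroid livers, against 1.10, 5.58, 2.17, 3.45 and 1.33 CPM in control livers, and athyroid animal 37 held 82.9% of the athyroid sum (edgeR adjusted p = 0.00864). Gkn1, gastrokine of the stomach lining, had 0.191, 83.9, 6.26, 0.424 and 0.184 CPM in athyroid livers, against 0.183, 0.169, 0.395, 0.203 and 0.191 CPM in control livers, with 92.2% in the same animal. Psca, a surface antigen of stomach and other epithelia, had 0.191, 54.5, 2.02, 0.424 and 0.736 CPM in athyroid livers, against 0.183, 0.169, 0.197, 0.203 and 0.191 CPM in control livers, again with 94.2% in athyroid animal 37. These 3 genes were thus high in the animal that also had the most amylase reads among the athyroid livers. Ramp3, a partner of calcitonin family receptors, had 4.01, 1.64, 5.45, 1.70 and 30.4 CPM in athyroid livers, against 1.83, 2.20, 1.38, 0.811 and 2.67 CPM in control livers, with 70.4% in athyroid animal 67.

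The share of tested genes that were called differed between chromosomes, from 7.59% of 632 genes on chromosome 13 to 14.5% of 564 on chromosome 19, against 9.63% of all. Chromosome 19 carries Fads1, Fads2, Fads3, Vldlr and the Cyp2c genes Cyp2c38 and Cyp2c54. Near the other deleted genes, 25 of 154 genes within 10 Mb of Dio1 (16.2%) and 10 of 114 within 10 Mb of Dio2 (8.77%) were called.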
